A study of Mus musculus with 24 samples.

Results

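Aminoacyl-tRNA synthetases are the enzymes that join each amino acid to its own tRNAs, the step that sets the meaning of the genetic code. Cytosolic enzymes charge tRNAs for the ribosomes of the cytoplasm, and a largely separate set of nuclear genes encodes the enzymes imported into mitochondria, where they charge the tRNAs encoded by mitochondrial DNA. Several of the cytosolic enzymes are held together with scaffold proteins in the multisynthetase complex, and transcription of many cytosolic members is raised by the transcription factor ATF4 when the kinases that phosphorylate the initiation factor eIF2 are active. The genes were taken by name. There were 36 of them, 20 cytosolic and 16 mitochondrial, beside 18669 genes in the table of counts. Gars and Kars, for glycine and lysine, serve both compartments and were counted as cytosolic. Of the 36, 35 were in the table (Cars2 was not analysed here) and 34 passed the filter on low counts. Pars2, the mitochondrial prolyl-tRNA synthetase, had 0 counts in 21 libraries and 1 count in each of the other 3, and was not tested. Of the 20 cytosolic genes, 8 (Dars, Eprs, Iars, Kars, Lars, Mars, Qars and Rars) encode enzymes of the multisynthetase complex, and the other 12 encode enzymes outside it.

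RNA of the quadriceps femoris muscle was sequenced from 24 mice, 2 in each of 12 groups, all on a CBA x C57BL/6 F1 background and all sampled 4 h after treatment. Wild type mice, R6/2 mice and Hsf1-/- mice were heat shocked (HS) at 41.5 °C for 15 min under isoflurane or held at 36.9 °C for 21 min as controls. Other mice of the same genotypes were given the HSP90 inhibitor HSP990 by mouth at 12 mg/kg, suspended in methyl cellulose and saline, or a vehicle labelled as saline. R6/2 mice carry a transgene with the first exon of the human huntingtin gene and an expanded CAG repeat, as a model of Huntington's disease. Hsf1-/- mice lack functional HSF1, the main transcription factor of the heat shock response, in every tissue. Wild type and R6/2 mice were 12 weeks old, whereas Hsf1-/- mice were 10 weeks old in the HS experiment and 8 weeks old in the HSP990 experiment, so that age and the Hsf1 genotype cannot be told apart. Libraries were made from polyadenylated RNA, so tRNAs and their charging were not measured. In bulk muscle, fewer cells of a type and less RNA per cell cannot be told apart.

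Hsf1 itself was measured first. Its level, in CPM (read counts scaled to library size after TMM correction), was 21.1 to 29.0 in the 8 Hsf1-/- mice, 45.3 to 53.7 in the 8 R6/2 mice and 52.9 to 68.6 in the 8 wild type mice. The range of the Hsf1-/- mice lay below both others but not near 0, and reads were still assigned to the gene. Library totals were 22450177 to 46599238 counts. In R6/2 mice 14.7% to 21.9% of a library came from its 20 most abundant genes, against 32.7% to 40.1% in the other mice. Markers of muscle fibres summed to 37541 to 85552 CPM in R6/2 mice and to 191998 to 239288 CPM in wild type mice, without overlap. Y-linked transcripts summed to at most 0.0881 CPM in the wild type and R6/2 mice of the HS experiment and to at least 162.6 CPM in all others. In wild type and R6/2 mice this cannot be told apart from the experiment, nor in control and HS mice from the Hsf1 genotype.

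The promoters of 26 of the 36 genes were matched in RefSeq (GRCm38.p6), with 250 bases before and 50 bases after the start of transcription. They were searched for the letters TGATGNAA on both strands, the core of the element that ATF4 binds together with C/EBP proteins. The letters were found in 3.97% of all 32851 promoters and in 4.51% of the 27025 genes they belong to, in 5 of the 13 cytosolic genes matched and in 0 of the 13 mitochondrial genes matched. The 5 were Aars, Gars, Iars, Tars and Yars. A site in each is shown so that the letters can be read in their promoters, with 10 bases on either side, in the sense of the gene, with the matched letters in capitals.
Aars, from base 10 of the transcript: gcgggtcactTTTCATCAgagcgctctg
Gars, 30 bases before the start: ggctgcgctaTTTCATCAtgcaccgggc
Iars, from base 8 of the transcript: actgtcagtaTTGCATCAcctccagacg
Tars, 15 bases before the start: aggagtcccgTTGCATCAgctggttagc
Yars, from base 4 of the transcript: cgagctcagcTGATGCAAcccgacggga
The site in Yars reads on the gene's own strand, and the others hold the reverse complement. Matched to the mm9 genome, to which the reads were mapped, the sites lay at chr8:113557741-113557768 for Aars (plus strand), chr6:54987955-54987982 for Gars (plus), chr13:49777496-49777523 for Iars (plus), chr15:11329411-11329438 for Tars (minus) and chr4:128867140-128867167 for Yars (plus). The same letters were in 8 of the 23 genes matched from the list of ATF4 and its targets described below, among them Asns, Atf3, Chac1, Fgf21 and Trib3. A match is a description of the sequence and not a measure of binding.

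Levels were compared between genes as CPM per kilobase of the longest coding transcript, over the 4 untreated wild type mice, so that each value also depends on the transcript taken. Eprs, the bifunctional glutamyl-prolyl-tRNA synthetase, was highest at 83.9 ± 16.3 (SD, n = 4), followed by Kars at 59.2 ± 2.83 and Gars at 44.0 ± 3.35. Nars, Mars, Sars, Rars and Farsb came next within 35.3 to 37.0, a range smaller than the SD of each but Farsb. The medians were 30.8 over the 8 genes of the complex, 26.8 over the 12 other cytosolic genes and 7.73 over the 14 mitochondrial genes tested. The mitochondrial genes ran from 2.81 for Nars2 to 21.6 for Iars2, and Iars2 and Lars2 (21.1 ± 6.53) were the only ones above 11 in this unit. Dars, the aspartyl-tRNA synthetase of the complex, stood apart from its partners at 3.02 ± 0.188, below the next gene of the complex, Lars, at 16.8 ± 1.27. Eprs differed between the experiments in wild type mice, at 339.6 and 338 CPM in the control mice and 474 and 476 CPM in the vehicle mice.

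HSP990 raised synthetase genes past the test in Hsf1-/- mice, and no other treatment of any genotype did. Aars, the alanyl-tRNA synthetase, and Lars, the leucyl-tRNA synthetase of the complex, rose. They were the 2 genes called among 34 (5.88%), against 0.218% of all 13754 genes tested called in either direction and 0.167% called higher. Aars (chromosome 8, 113557044 to 113581564, mm9) was at 162 and 187 CPM in the vehicle mice and at 291 and 342 CPM in the HSP990 mice, a log2 fold change of 0.86 ± 0.15 (SE) with an adjusted p of 0.0166 by the quasi-likelihood test of edgeR, adjusted after Benjamini-Hochberg over all genes. Lars was at 70.1 and 71.7 CPM in the vehicle mice and at 109.8 and 121 CPM in the HSP990 mice, a log2 fold change of 0.70 ± 0.10 with an adjusted p of 0.00447. For both genes the 2 treated mice were above every other one of the 24 mice. Yars followed at a log2 fold change of 0.52 ± 0.11 (81.7 and 90.9 CPM to 117 and 131 CPM) and missed the threshold (adjusted p = 0.0905).

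In all, 8 members were higher and 2 were lower at an unadjusted p under 0.05 in these mice, beside 717 higher and 587 lower of all 13754 genes (5.21% and 4.27%). Besides Aars, Lars and Yars, the higher genes were Cars (log2 fold change 0.47 ± 0.16), Mars (0.44 ± 0.16), Gars (0.42 ± 0.11), Iars (0.40 ± 0.11) and Nars (0.39 ± 0.10), with adjusted p-values of 0.169 to 0.385. The lower genes were Qars at -0.39 ± 0.09 and Kars at -0.21 ± 0.09, for glutamine and lysine, with adjusted p-values of 0.139 and 0.466. Qars was at 91.6 and 88.8 CPM in the vehicle mice and 67.6 and 70.2 CPM in the HSP990 mice, without overlap. Members of the complex therefore lay on both sides of 0, with log2 fold changes of -0.39 to 0.70 and a median of 0.01. The 12 other cytosolic genes had a median of 0.24 and the 14 mitochondrial genes a median of -0.10, beside 0.01 over all genes. Among the mitochondrial genes 0 were at an unadjusted p under 0.05. Aars2, the mitochondrial partner of Aars, was at 35.5 and 39.1 CPM in the vehicle mice and 31.2 and 34.6 CPM in the HSP990 mice. Lars2 was at 73.9 and 151 CPM in the vehicle mice and 72.1 and 124 CPM in the HSP990 mice, with a spread within each group that exceeded the difference between them.

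A fit of the 4 libraries of this comparison alone called 0 genes of all those tested, with Aars at an adjusted p of 0.409 and Lars at 0.412, whereas DESeq2 on all libraries called 5 members higher (Aars, Lars, Gars, Nars and Yars) and 1 lower (Qars), against 1.03% of all genes by that tool. Without vehicle replicate 1 neither Aars nor Lars was called (adjusted p = 0.196 and 0.0833), and without vehicle replicate 2 or HSP990 replicate 2 Lars alone was. Of the 40 tested markers of muscle fibres and other cell types, 0 were called here by edgeR. The summed muscle fibre markers were 243477 to 259949 CPM in the vehicle mice and 189284 to 210510 CPM in the HSP990 mice, without overlap, and their part in the result was not tested.

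**Figure D1:**
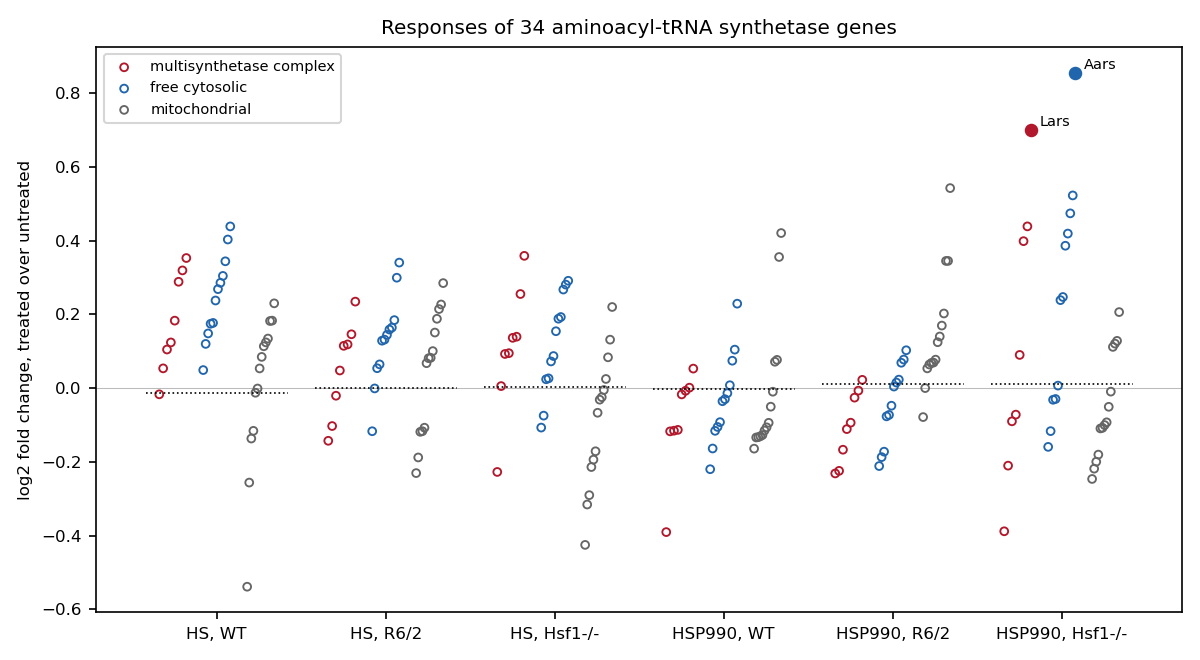
Log2 fold change of each of the 34 tested synthetase genes (1 point per gene) for treated over untreated mice in 6 comparisons of 2 against 2 mice, in 3 groups of genes. Filled points passed the test and dotted lines mark the median of all genes tested. Aars at 0.86 and Lars at 0.70 in HSP990-treated Hsf1-/- mice are the 2 filled points.

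The same dose of HSP990 gave no called member in wild type mice (edgeR and DESeq2 both called 0 of 34, against 1.85% of all genes by edgeR) or in R6/2 mice (0 by both, against 1.43%). At an unadjusted p under 0.05, Ears2 was higher (0.36 ± 0.16) and Mars lower (-0.39 ± 0.16) in wild type mice on the log2 scale. In R6/2 mice Ears2 (0.54 ± 0.16) and Mars2 (0.34 ± 0.16) were higher and Lars was lower (-0.23 ± 0.10). Aars was at 203 and 200.5 CPM in the wild type vehicle mice and at 199 and 200.2 CPM after HSP990. In R6/2 mice it was at 127 and 154 CPM with vehicle and at 119 and 166 CPM after HSP990. Lars was at 68.2 and 69.5 CPM in wild type vehicle mice and 74.2 and 68.6 CPM after HSP990, and at 84.5 and 83.9 CPM in R6/2 vehicle mice and 69.1 and 74.3 CPM after HSP990. Treated and vehicle mice overlapped for Aars in R6/2 mice and for Lars in wild type mice, both treated R6/2 mice were below both vehicle mice for Lars, and the wild type values of Aars lay within 4 CPM of each other. In wild type mice summed fibroblast markers were at 795 to 812 CPM with vehicle and 1298 to 1330 CPM with HSP990. Endothelial, macrophage and leukocyte, and Schwann markers were also higher without overlap, while muscle fibre markers overlapped. Of the 40 markers tested, 1 was called there, and their part in the result was not tested.

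Whether the response to HSP990 differed between Hsf1-/- and wild type mice was tested as an interaction. edgeR called 0 of 34 members, against 0.422% of all genes, while DESeq2 called 3 (Aars, Lars and Yars), against 0.858% of all genes by that tool. At an unadjusted p under 0.05, 7 members had a higher log2 response in Hsf1-/- mice and 0 a lower one, beside 366 and 582 of all genes. Aars differed by 0.87 ± 0.21 (adjusted p = 0.129), and Lars came nearest to the threshold at 0.65 ± 0.14 (adjusted p = 0.0765). The others were Mars (0.83 ± 0.23), Yars (0.64 ± 0.16), Iars (0.52 ± 0.16), Gars (0.51 ± 0.15) and Nars (0.49 ± 0.15). By edgeR, a difference in response between the genotypes was not shown for any single synthetase gene. Between R6/2 and wild type mice, the response to HSP990 differed for 0 of 34 members by edgeR and by DESeq2 and for 0 at an unadjusted p under 0.05, against 0% of all genes called.

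**Figure D2:**
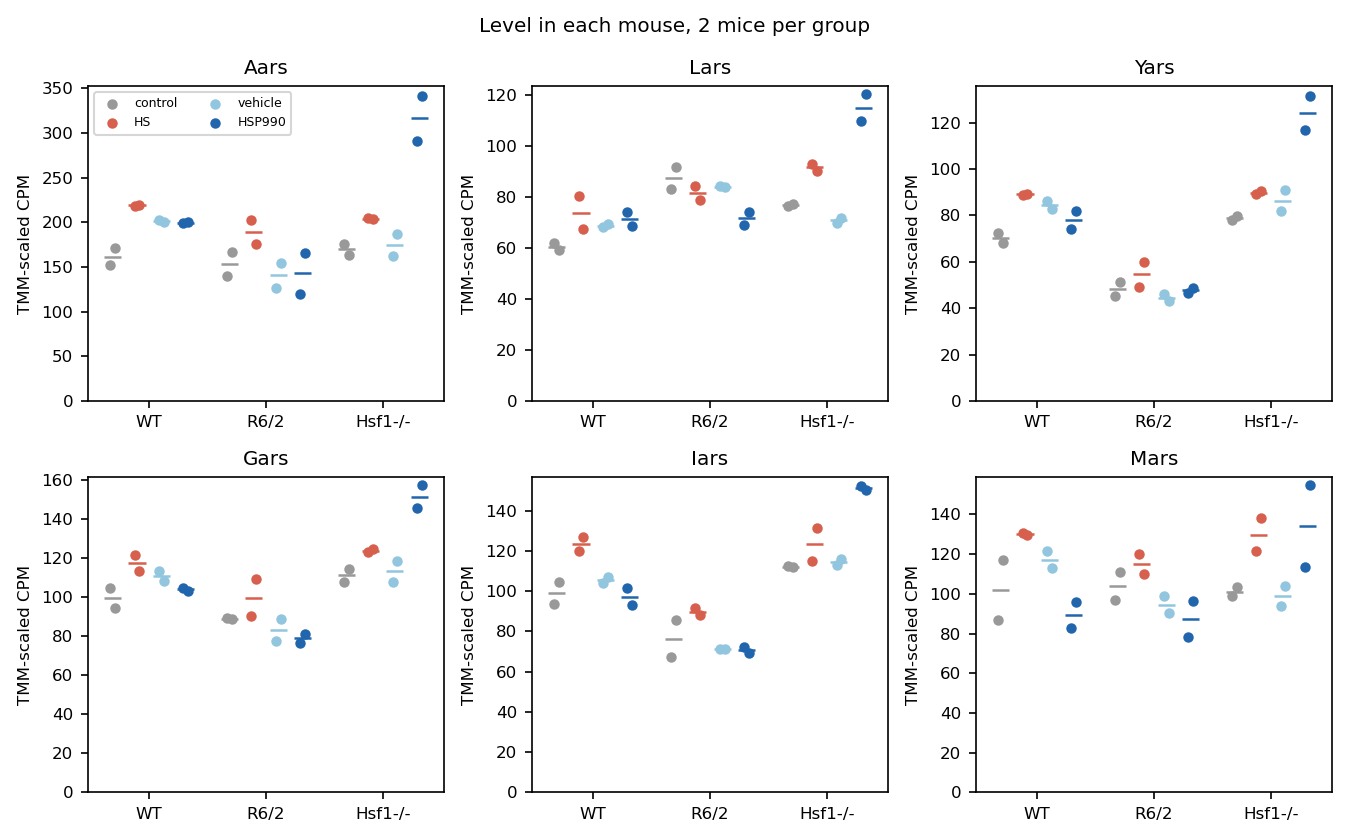
TMM-scaled CPM of 6 cytosolic synthetase genes in each of 24 mice, by genotype and treatment, with a bar at the mean of the 2 mice of a group. In Hsf1-/- mice the 2 HSP990 values lie above both vehicle values for each of the 6 genes, and Aars reaches 291 and 342 CPM.

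ATF4 and genes it is known to induce were listed as companions of the synthetases, and 25 of 26 were tested. In HSP990-treated Hsf1-/- mice 7 rose and 0 fell, where 0.167% of all genes were called higher. Their median log2 fold change was 1.01, beside 0.01 over all genes. Trib3, a pseudokinase that restrains ATF4, was at 1.04 and 2.57 CPM with vehicle and at 65.6 and 143 CPM with HSP990, a log2 fold change of 5.84 ± 0.46. Sesn2, a leucine sensor of the mTORC1 pathway, rose by 4.25 ± 0.29 from 4.10 and 3.78 CPM to 57.2 and 92.4 CPM. Mthfd2, of mitochondrial one-carbon metabolism, rose by 3.27 ± 0.31, Ddit3, encoding CHOP, by 2.78 ± 0.42, Psat1, of serine synthesis, by 2.31 ± 0.37 and Cebpg by 1.10 ± 0.16, all on the log2 scale. Fgf21 had 0 and 4 counts in the vehicle mice and 218 and 166 counts in the HSP990 mice. Atf4 itself was at 275 and 303 CPM with vehicle and 399.6 and 451 CPM with HSP990 and did not pass the test. Without each of the 4 mice in turn, the call of Fgf21 was lost in 4 of 4 fits and that of Ddit3 in 2. In wild type mice 0 of the 25 were called by edgeR after HSP990, against 1.85% of all genes. At an unadjusted p under 0.05, 1 was higher and 5 were lower, beside 8.7% of all genes higher and 4.51% lower. Their median was 0.32, beside -0.001 over all genes.

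Of 14 amino acid transporters, 4 rose in HSP990-treated Hsf1-/- mice and 0 fell, where 0.167% of all genes were called higher. Slc7a5, the large neutral amino acid transporter that carries leucine, was at 0.282 and 0.374 CPM with vehicle and 12.8 and 18.6 CPM with HSP990, a log2 fold change of 5.56 ± 0.46. Slc1a4, which carries alanine and serine, rose by 4.57 ± 0.45, Slc7a1, which carries arginine and lysine, by 3.24 ± 0.39 and the glycine transporter Slc6a9 by 1.96 ± 0.31, which became 1.22 without HSP990 replicate 2 and lost its call in 2 of 4 such fits. Xpot, which exports tRNAs from the nucleus, rose by 0.89 ± 0.11, from 39.0 and 38.9 CPM to 71.6 and 73.1 CPM, and was the 1 gene called among 11 elongation factors and tRNA-handling genes. The interaction with genotype was called for Trib3, Sesn2, Mthfd2, Slc7a5, Slc1a4 and Xpot, at log2 differences of 5.32, 3.69, 2.18, 4.45, 2.88 and 0.75. The call of Xpot was lost without any 1 of the 8 mice compared, and those of Mthfd2 and Slc1a4 without 6 of the 8. The 3 scaffold genes of the multisynthetase complex (Aimp1, Aimp2 and Eef1e1), the 8 genes for amidation, formylation and proofreading, the 9 eIF2 kinases and regulators tested and the 9 mitochondrial translation factors had 0 calls by edgeR in HSP990-treated Hsf1-/- mice, against 0.218% of all genes. At an unadjusted p under 0.05 were 0, 2, 2 and 2 of them, beside 5.21% of all genes higher and 4.27% lower.

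Mars lies beside Ddit3. On mm9 (chromosome 10, 126733277 to 126748842) it overlaps that gene on the opposite strand, and their annotated exons share 68 bases. Ddit3 went from 8.95 and 11.0 CPM to 44.6 and 92.8 CPM in the HSP990-treated Hsf1-/- mice while Mars went from 93.8 and 104 CPM to 114 and 155 CPM. The libraries kept strand, but whether the counting used it is not given in the sources used here, so the value of Mars is uncertain in that comparison. Hars and Hars2 share 195 exonic bases on opposite strands, Farsb and Sgpp2 265 bases, and Iars2 and Rab3gap2 2018 bases. Vars shares 304 bases with a gene on the opposite strand, Nars2 284, Cars 211, Ears2 89, Aars 77 and Yars 30. The same uncertainty about strand holds for all of these, and the part of the overlaps in their values was not tested. No member had a copy elsewhere in mm9 within 2% divergence over 50% of its transcript. The nearest was a copy of Iars on chromosome 1 at 3.83% divergence over 62.2% of the transcript.

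**Figure D3:**
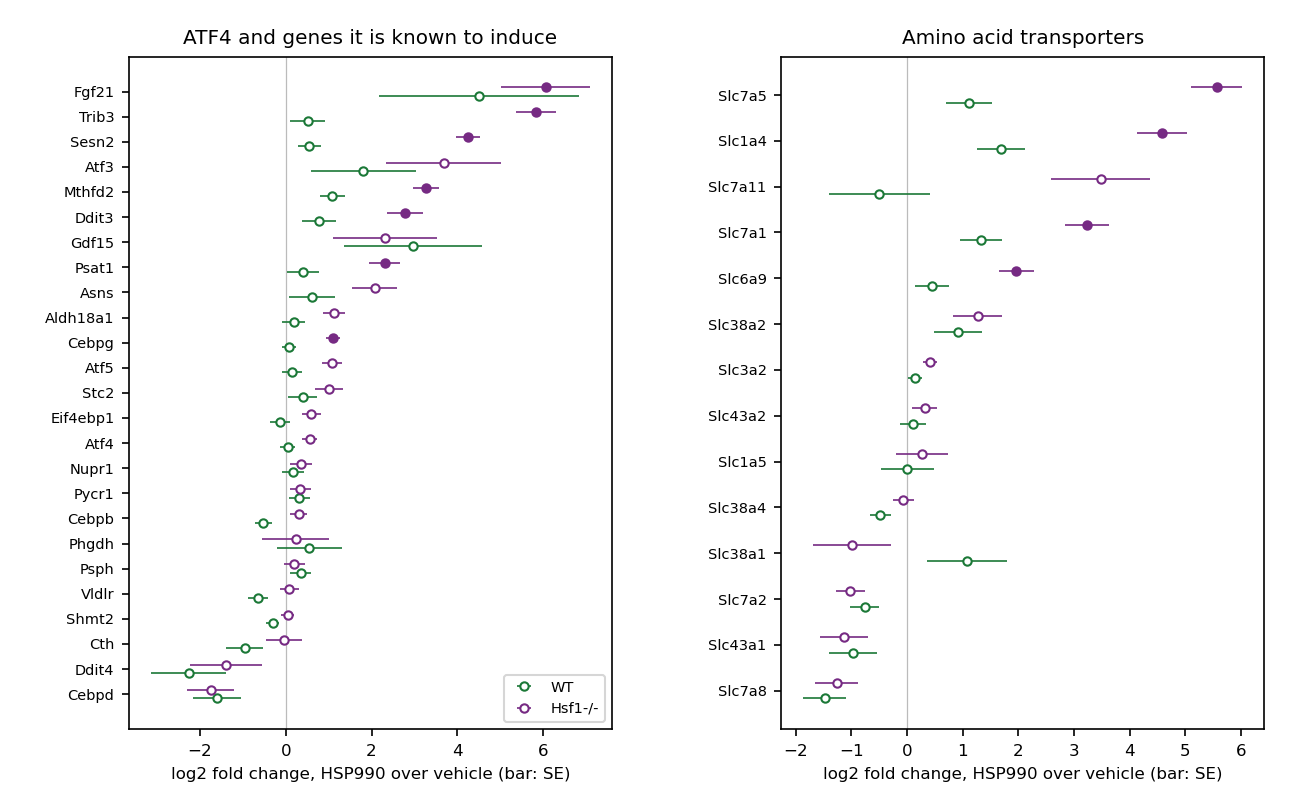
Log2 fold change with SE for HSP990 over vehicle in wild type and Hsf1-/- mice (2 against 2 mice each), for ATF4 and the genes it is known to induce and for amino acid transporters. Filled points passed the test, and they are 7 genes on the left and 4 on the right, all in Hsf1-/- mice, with the place of Fgf21 set by the prior count.

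In wild type mice, HS gave 0 called members of 34 by edgeR and 0 by DESeq2, against 2.06% of all genes by edgeR. At an unadjusted p under 0.05, 9 members were higher and 0 lower, beside 879 higher and 748 lower of all 13754 genes. They were Aars (log2 fold change 0.44 ± 0.15), Sars (0.40 ± 0.13), Mars (0.35 ± 0.16), Yars (0.34 ± 0.11), Iars (0.32 ± 0.11), Lars (0.29 ± 0.10), Nars (0.29 ± 0.10), Vars (0.27 ± 0.12) and Gars (0.24 ± 0.11), with adjusted p-values of 0.157 to 0.39. All 9 are cytosolic. Of the 20 cytosolic genes 19 lay above 0, with a median of 0.21, and of the 14 mitochondrial genes 8 did, with a median of 0.07, where 47.7% of all genes lay above 0 with a median of -0.01. Summed muscle fibre markers were 191998 to 202426 CPM in the control and 206287 to 239288 CPM in the HS mice, without overlap, and 6 of 6 adipocyte markers lay below 0 (summed 224 to 672 CPM and 175 to 356 CPM, with overlap). No marker was called, and their part in the result was not tested.

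The 2 HS mice were above both control mice of the wild type for each of Aars, Sars and Yars. Aars was at 152 and 171 CPM in the control mice and 219 and 219 CPM in the HS mice. Sars, the seryl-tRNA synthetase, was at 116 and 127 CPM in the control mice and 175 and 145 CPM in the HS mice. Yars, the tyrosyl-tRNA synthetase, was at 72.3 and 68.2 CPM in the control mice and 88.9 and 89.3 CPM in the HS mice. The control level of Aars lay below that of the wild type vehicle mice of the other experiment (203 and 200.5 CPM). With library size only in place of TMM, the log2 fold changes were 0.30 for Aars and 0.10 for Gars, with the median of all members at 0.00 and that of all genes at -0.15.

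HS in R6/2 mice gave 0 called members by either tool (0.0436% of all genes by edgeR) and 1 at an unadjusted p under 0.05, Cars at 0.34 ± 0.16. In Hsf1-/- mice it gave 0 by either tool (0.00727% of all genes by edgeR), with Mars (0.36 ± 0.16), Vars (0.28 ± 0.12) and Lars (0.26 ± 0.10) higher and Mars2 (-0.43 ± 0.16) lower at an unadjusted p under 0.05. Aars was at 140.1 and 167 CPM in the R6/2 control mice and 202 and 175 CPM after HS. In Hsf1-/- mice it was at 176 and 164 CPM and at 205 and 203 CPM after HS, so that HS and control mice did not overlap for Aars in any genotype. The response to HS differed from that of wild type mice for 0 members in R6/2 mice (0.0727% of all genes, with Lars and Tars2 lower at an unadjusted p under 0.05) and for 0 in Hsf1-/- mice (0.16% of all genes, 0 members at an unadjusted p under 0.05), by edgeR and DESeq2 alike.

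HS changed companion genes in the wild type. From the ATF4 list, Ddit4, an inhibitor of mTORC1, rose by 5.71 ± 0.97, Cebpd by 3.55 ± 0.57, Stc2 by 2.37 ± 0.33 and Cebpb by 1.93 ± 0.20 on the log2 scale, and the transporters Slc7a8 and Slc7a5 rose by 2.17 ± 0.39 and 2.08 ± 0.42. Without each of the 4 mice in turn, Stc2 and Cebpb were called in every fit, whereas Ddit4, Cebpd, Slc7a8 and Slc7a5 each lost the call in 2. In R6/2 and in Hsf1-/- mice too, both HS mice were above both control mice for each of these genes. None of them was called there, nor was the difference of their response from that of wild type mice. Slc7a8 went from 33.6 and 27.6 CPM to 104.7 and 115.4 CPM in R6/2 mice. In Hsf1-/- mice it went from 39.9 and 41.4 CPM to 91.2 and 84.9 CPM. Trib3 was at 2.52 and 1.75 CPM in the wild type control mice and 3.36 and 3.20 CPM in the wild type HS mice, and did not pass the test. Sesn2 was at 7.20 and 5.97 CPM and 5.78 and 7.45 CPM, and did not pass either. The 2 experiments also differed in Y-linked transcripts in wild type and R6/2 mice and in age in Hsf1-/- mice. These differences cannot be told apart from the kind of treatment. Tested directly, HS and HSP990 responses differed for 0 of 34 synthetase genes in wild type mice by edgeR (2.38% of all genes) and 1 by DESeq2 (4.71%). At an unadjusted p under 0.05, 7 members were higher under HS (Aars, Gars, Iars, Mars, Nars, Vars and Yars) and 1 lower (Nars2), beside 6.36% of all genes higher and 8.54% lower. By both tools the responses differed for 0 members in R6/2 mice (1.63% of all genes by edgeR) and for 0 in Hsf1-/- mice (0.145% of all genes by edgeR). Unadjusted, Ears2 and Mars2 were lower in R6/2 mice, beside 4.84% of all genes. In Hsf1-/- mice Kars and Qars were higher and 3 members lower unadjusted, beside 5.34% and 5.53% of all genes. In Hsf1-/- mice the lower HS responses were those of Aars (-0.59 ± 0.21), Mars2 (-0.55 ± 0.23) and Lars (-0.45 ± 0.14), and Trib3, Sesn2, Mthfd2, Slc7a5 and Slc1a4 were called lower there. Trib3 and Sesn2 kept that call without each of the 8 mice in turn, whereas Slc1a4 lost it in 5 and Mthfd2 and Slc7a5 in all 8 fits.

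More members were called between untreated R6/2 and wild type mice than in any other comparison. Among vehicle mice 12 members were lower in R6/2 and 0 higher, or 35.3% of those tested, against 19.2% of all genes called in either direction and 10.5% called lower. Among control mice 5 were lower and 2 higher, 20.6% of those tested, against 12.4% of all genes in either direction, 6.94% lower and 5.5% higher. Farsb, Iars, Yars, Ears2 and Rars2 were called lower in both experiments, which share no mice. The mitochondrial members stood lowest, with 14 of 14 below 0 among vehicle mice (median -0.46, beside 0.07 over all genes) and 12 of 14 among control mice (median -0.30, beside 0.01). The cytosolic medians were -0.22 and -0.06. At an unadjusted p under 0.05 but not called were Aars2, Fars2 and Tars2 (lower) and Lars (higher) among vehicle mice, and Cars, Mars2, Sars2 and Yars2 (lower) and Nars and Tars (higher) among control mice.

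These directions rest on the scaling. With library size only, the median of all genes was 0.55 among control mice and 0.74 among vehicle mice on the log2 scale. The members' medians were then 0.41 and 0.36, below those of all genes, but 19 and 16 members were called higher and 0 lower, where 41.8% and 53.5% of all genes were called higher. TMM without the 20 most abundant genes and RLE size factors each called the same numbers of members as TMM in each direction, and DESeq2 called 7 lower and 2 higher among control mice and 12 lower and 1 higher among vehicle mice (16.4% and 22.3% of all genes called by that tool). With library size only, Aars, Ears2, Farsb, Gars, Iars, Rars2, Sars and Yars2 among vehicle mice and Farsb and Iars among control mice turned above 0. Yars (-0.25), Cars (-0.09), Mars2 (-0.15) and Sars2 (-0.17) among vehicle mice stayed below 0 but were no longer called. Among control mice Yars, Rars2 and Ears2 were then at -0.006, -0.12 and -0.08 and no longer called either. In either scaling Lars and Hars were called higher in R6/2 control mice. Without each of the 4 mice in turn, Lars kept its call in every fit, whereas Hars and Farsb lost theirs in all 4 and Iars in 3, with a log2 fold change of -0.21 without R6/2 replicate 1. Among vehicle mice Yars, Iars and Mars2 kept the call in every fit, and Yars2 lost it in all 4. Without R6/2 replicate 1, wild type replicate 1 or wild type replicate 2 the calls among control mice dropped to 1, 1 and 3, and those among vehicle mice to 5, 5 and 6. The share of all genes called in those fits is not given here, so these drops cannot be read as particular to the synthetases. The 8 muscle fibre markers had median log2 fold changes of -1.83 and -2.29, with 7 and 8 called lower. Of the fibroblast markers, Lum and Pdgfra were called higher among vehicle mice (median of the 6 0.26), and 6 of 6 adipocyte markers lay below 0 in both experiments (medians -1.84 and -1.18, 0 called). Summed, the adipocyte markers were at 224 to 672 CPM in wild type and 125.5 to 126.4 CPM in R6/2 control mice, and at 85.0 to 252.5 CPM and 56.9 to 127.4 CPM in vehicle mice. The part of these markers in the result was not tested.

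Yars had the lowest log2 fold change of all members among vehicle mice, under TMM. It was at 86.0 and 82.9 CPM in wild type and 46.1 and 43.0 CPM in R6/2 vehicle mice, a log2 fold change of -0.92 ± 0.11 (adjusted p = 5.85e-05). Among control mice it was at 72.3 and 68.2 CPM in wild type and 45.1 and 51.2 CPM in R6/2, a change of -0.55 ± 0.11 (adjusted p = 0.00542). All 8 R6/2 mice, treated or not, were below all 16 others for Yars in these TMM-scaled values. With library size only, its changes were -0.25 among vehicle and -0.006 among control mice, and neither was called. Yars2, its mitochondrial partner, was at 25.8 and 26.6 CPM in wild type vehicle mice and 16.9 and 18.0 CPM in R6/2 vehicle mice, a change of -0.59 ± 0.17. Cars, for cysteine, was at 60.3 and 54.2 CPM in the vehicle mice of the wild type and 29.4 and 38.2 CPM in those of R6/2, a change of -0.76 ± 0.16. It was at -0.47 ± 0.16 among control mice, where it did not pass the test.

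Iars, the isoleucyl-tRNA synthetase of the complex, fell by 0.57 ± 0.11 among vehicle mice and by 0.37 ± 0.11 among control mice on the log2 scale. Its values were 104 and 107 CPM in wild type and 71.5 and 71.0 CPM in R6/2 vehicle mice, while its mitochondrial partner Iars2 was at 121 and 117 CPM in wild type and 111 and 113 CPM in R6/2. The other cytosolic genes called lower among vehicle mice were Aars (-0.52 ± 0.15), Sars (-0.46 ± 0.13), Gars (-0.41 ± 0.11) and Farsb (-0.36 ± 0.11), the last encoding the beta chain of the phenylalanyl enzyme. Sars was at 135 and 133 CPM in wild type and 90.0 and 105 CPM in R6/2 vehicle mice. Gars was at 113 and 108 CPM in wild type and 77.6 and 88.7 CPM in R6/2, and Farsb at 70.8 and 74.9 CPM in wild type and 52.6 and 61.2 CPM in R6/2. For each of the 3, and for Aars, wild type and R6/2 vehicle mice did not overlap. Farsa, which encodes the alpha chain, was at 33.2 and 32.4 CPM in wild type and 29.1 and 25.8 CPM in R6/2 vehicle mice and did not pass the test. Fars2, the separate mitochondrial phenylalanyl enzyme, was at 19.1 and 20.2 CPM in wild type and 13.0 and 15.4 CPM in R6/2 (-0.47 ± 0.21, not called).

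Lars and Hars went the other way in control mice. Lars was at 61.97 and 59.19 CPM in the control mice of the wild type and 83.2 and 91.9 CPM in those of R6/2, a log2 fold change of 0.53 ± 0.10 with an adjusted p of 0.00347. Among vehicle mice it was at 68.2 and 69.5 CPM against 84.5 and 83.9 CPM (0.29 ± 0.10, adjusted p = 0.0565). R6/2 and wild type mice did not overlap for Lars in either experiment. Hars, for histidine, was at 38.4 and 35.9 CPM in wild type and 48.2 and 52.0 CPM in R6/2 control mice (0.43 ± 0.11), and at 41.4 and 38.0 CPM in wild type and 43.1 and 46.7 CPM in R6/2 among vehicle mice (0.18 ± 0.11, not called). Hars2, its mitochondrial neighbour on the opposite strand, was at 34.1 and 28.7 CPM in wild type and 34.4 and 31.9 CPM in R6/2 among control mice.

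Among the mitochondrial enzymes, Sars2 and Mars2 had the lowest log2 fold changes among vehicle mice. Sars2 was at 14.5 and 12.4 CPM in wild type vehicle mice and 6.07 and 9.03 CPM in R6/2 vehicle mice, a log2 fold change of -0.84 ± 0.19. Mars2, for methionine, was at 16.2 and 17.6 CPM in wild type and 8.72 and 10.4 CPM in R6/2, a change of -0.82 ± 0.16. Its cytosolic partner Mars, at 122 and 113 CPM in wild type and 98.7 and 90.3 CPM in R6/2, was not called. The remaining genes called, Ears2 and Rars2, were called in both experiments.

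Ears2, for glutamate, was at 12.7 and 12.2 CPM in wild type and 8.85 and 7.56 CPM in R6/2 among vehicle mice (-0.60 ± 0.16) and at 12.5 and 12.8 CPM in wild type and 7.73 and 8.71 CPM in R6/2 among control mice (-0.62 ± 0.16). Rars2, for arginine, was at 12.8 and 15.9 CPM in wild type and 9.76 and 9.48 CPM in R6/2 among vehicle mice (-0.58 ± 0.15) and at 17.8 and 15.5 CPM in wild type and 10.3 and 10.8 CPM in R6/2 among control mice (-0.66 ± 0.15). R6/2 mice were below wild type mice without overlap for both genes in both experiments, and for Sars2 and Mars2 among vehicle mice. Rars, the cytosolic partner of Rars2, was at 68.8 and 74.1 CPM in wild type and 64.1 and 73.9 CPM in R6/2 among vehicle mice, which overlapped.

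**Figure D4:**
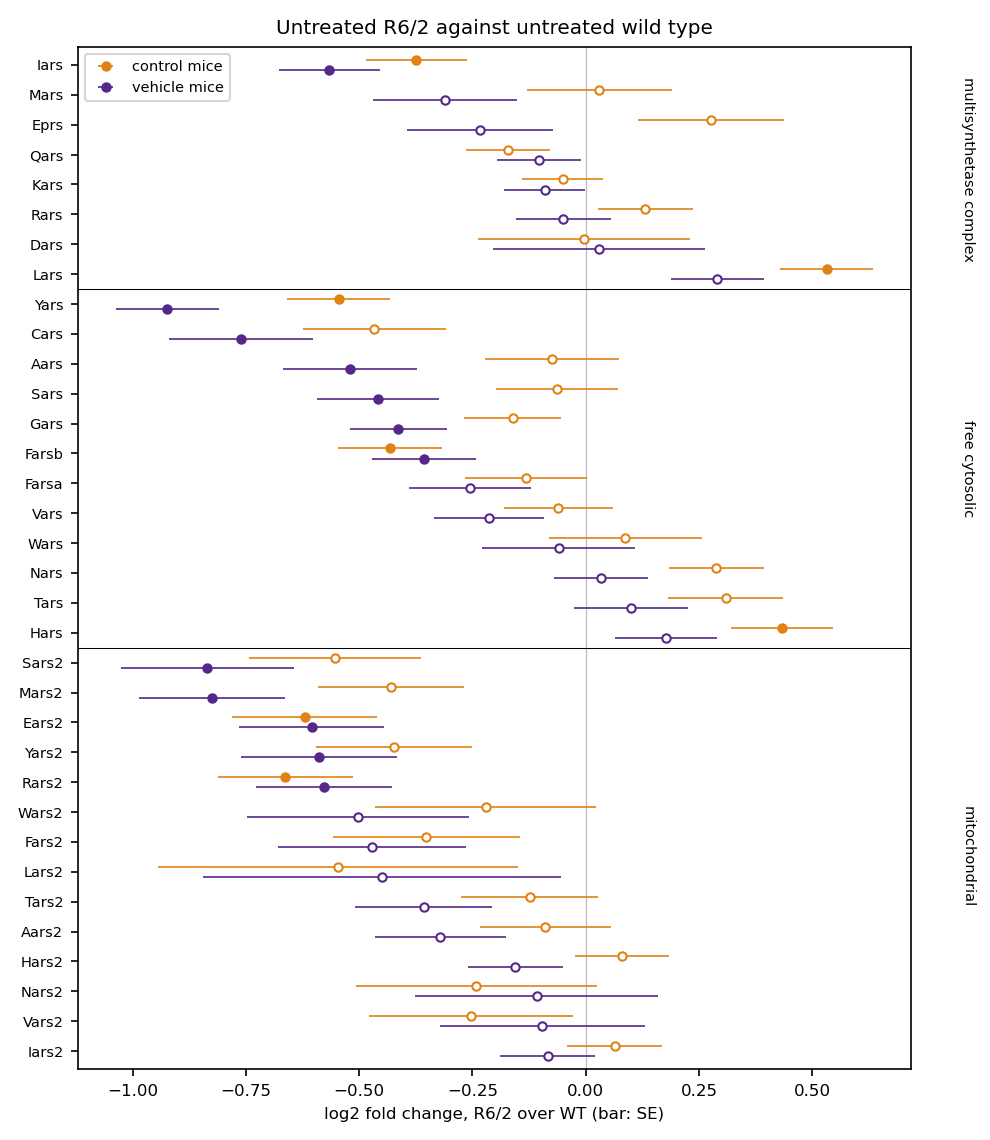
Log2 fold change with SE of 34 synthetase genes in untreated R6/2 over untreated wild type mice, for control and for vehicle mice (2 against 2 mice each). Filled points passed the test. All 14 mitochondrial genes lie below 0 among vehicle mice, and Lars (0.53) and Hars (0.43) are the 2 genes called higher among control mice, whereas with library size only no member was called lower.

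Other components of the same machinery were lower in untreated R6/2 mice under TMM. Aimp2, a scaffold of the multisynthetase complex, was at 225 and 199.6 CPM in wild type and 47.4 and 60.2 CPM in R6/2 vehicle mice, a log2 fold change of -1.98 ± 0.28, and had one of -1.69 ± 0.27 among control mice. On mm9 Aimp2 overlaps Eif2ak1 on the opposite strand. Their shared exonic bases were not determined, and the use of strand in the counting is not given. The other 2 scaffold genes fell less, Eef1e1 by 0.62 ± 0.16 and Aimp1 by 0.41 ± 0.12 among vehicle mice, both of which lost the call in 3 of 4 fits without 1 mouse. These 2 turned above 0 with library size only, as did Mtrf1 and Eef1a2 named below. So did Gfm1 among control mice (0.0368), 1 of the 3 factors called there. Of 9 mitochondrial translation factors, 4 fell among vehicle mice (Gfm2 by 1.03 ± 0.14, Tufm by 1.03 ± 0.18, Gfm1 by 0.95 ± 0.15 and Mtrf1 by 0.39 ± 0.13, or -0.25 and not called without R6/2 replicate 2) and 3 among control mice, with 0 rising. Of all genes, 10.5% were called lower in R6/2 among vehicle mice and 6.94% among control mice. Qrsl1, a subunit of the mitochondrial enzyme that makes glutaminyl-tRNA from glutamyl-tRNA, fell by 0.88 ± 0.15 among vehicle and 0.64 ± 0.15 among control mice. With library size only, Qrsl1 was at -0.21 among vehicle and -0.10 among control mice, and Tufm at -0.36 and -0.11. Gfm1 was then at -0.28 among vehicle mice, and none of these was called. Gfm2 stayed called, at -0.36 among vehicle and -0.38 among control mice. Eef2, the cytosolic elongation factor for translocation, rose by 0.64 ± 0.17 among control mice (0.34 and not called without R6/2 replicate 1), and Eef1a2, the muscle form of elongation factor 1 alpha, fell by 0.49 ± 0.12 among vehicle mice.

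Untreated Hsf1-/- and wild type mice differed for 0 of 34 members in the HS experiment by edgeR (1.93% of all genes) and 2 by DESeq2 (5.33%), and for 0 in the HSP990 experiment by both (0.0872% of all genes by edgeR). At an unadjusted p under 0.05, Eprs (0.57 ± 0.16), Mars2 (0.37 ± 0.16), Lars (0.34 ± 0.10) and Hars (0.24 ± 0.11) were higher and Ears2 (-0.34 ± 0.16) lower among control mice. Among vehicle mice Vars2 (0.61 ± 0.23) and Qars (0.24 ± 0.09) were higher and Iars2 (-0.23 ± 0.10) lower. Eprs was at 482 and 520 CPM in the Hsf1-/- control mice and at 481 and 514 CPM in the vehicle mice, near the 474 and 476 CPM of the wild type vehicle mice. Over all 17 comparisons by edgeR, 14 of the 34 members (41.2%) were called at least once, against 27.0% of all genes, and all 14 were called in an untreated R6/2 comparison (22.6% of all genes). The other 20 were never called by edgeR, among them Dars, Eprs, Kars, Mars, Qars and Rars of the complex.

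Lars2, the mitochondrial leucyl-tRNA synthetase, varied with the replicate number in 1 experiment. In the HSP990 experiment it was at 68.5 and 119.8 CPM in replicates 1 and 2 of the wild type vehicle mice, 47.5 and 90.4 CPM in those of the R6/2 vehicle mice and 73.9 and 151 CPM in those of the Hsf1-/- vehicle mice. In all 6 groups of that experiment replicate 2 was above replicate 1, by 0.78 to 1.02 on the log2 scale, and in the 6 groups of the HS experiment the same difference was -0.12 to 0.31. Of 8951 genes with a mean of at least 5 CPM, Lars2 and Zbtb20 (0.86 to 1.71) were the 2 with replicate 2 above replicate 1 by more than 0.7 in all 6 groups. Lars2 was not called in any comparison by edgeR, and this spread stands behind its values in the HSP990 experiment.

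**Figure D5:**
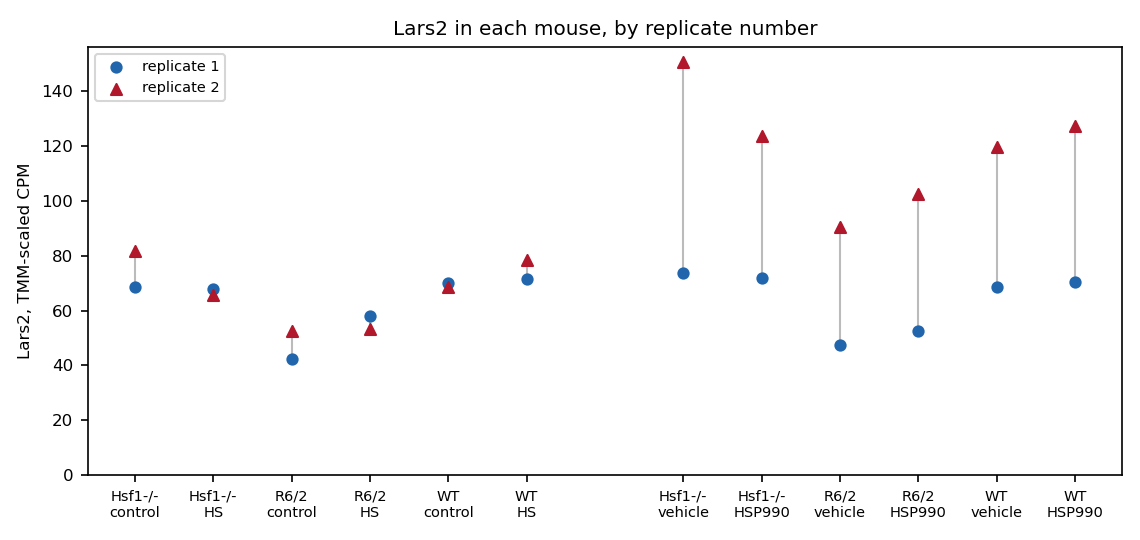
TMM-scaled CPM of Lars2 in replicates 1 and 2 of each of the 12 groups, joined by a line per group. In the 6 groups of the HSP990 experiment replicate 2 lies above replicate 1 by 0.78 to 1.02 on the log2 scale, and in the 6 groups of the HS experiment by -0.12 to 0.31.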

How the data were processed

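Polyadenylated RNA of mouse quadriceps was sequenced strand-specifically in paired 40 bp reads. The authors mapped the reads to mm9 with Bowtie and deposited raw read counts per gene for 24 libraries, without normalization. The submitters' processing notes also name DESeq2. The program that counted reads, its annotation and its use of strand are not given in the sources used here. Of 18669 gene identifiers 18594 matched a symbol. Cars2 was not analysed here.

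The test took in the 13754 genes that reached 2 counts in 10 or more libraries, and was run in R 4.3.3 with edgeR 4.0.16. TMM scaling, group means for 12 groups (12 residual degrees of freedom) and the two-sided quasi-likelihood F test were used for 17 contrasts, with Benjamini-Hochberg adjustment over all genes tested and a threshold of 0.05. DESeq2 1.42.0 was an alternative, among others listed in the closing section. The labels give no litter or batch, and p-values measure only the spread between these mice. CPM were computed from counts and TMM-scaled library sizes. An SE is the log2 fold change divided by the square root of F. The 36 synthetase genes and the lists of companion and marker genes were chosen with earlier results of these data known, so a list's count is no independent evidence. Members called in any contrast and the partner for the same amino acid were named with the value of every mouse (in full for up to 5 per contrast, by size of change), as were up to 5 called genes per companion list and contrast by size of change. Members at an unadjusted p under 0.05 were named besides. On counts simulated for HSP990 against vehicle in Hsf1-/- mice (13754 genes, 200 changed), 128 of the 136 genes called were planted, and 6%, 56% and 97% were recovered at log2 changes of 0.5, 1 and 2. Copies of the members' transcripts in mm9 were sought with minimap2 2.31-r1302, and promoter sites were placed in mm9 by exact match. A further promoter site is not reported here.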

Additional observations from a re-analysis of the deposited data

Results flagged for a closer look

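The response to HSP990 differed between Hsf1-/- and wild type mice by the interaction test for 6 companion genes of the synthetases. As differences of log2 fold changes, they were 5.324 for Trib3, 4.446 for Slc7a5, 3.695 for Sesn2, 2.882 for Slc1a4, 2.178 for Mthfd2 and 0.7471 for Xpot. Trib3, Sesn2 and Slc7a5 were called without each of the 8 mice in turn, Mthfd2 and Slc1a4 in 2 of these 8 fits and Xpot in 0 of them. Groups of 2 mice are too small for a test of single mice that stand apart within a group.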

How the results depend on the processing

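Counts of called members by edgeR were recomputed under RLE size factors, library size only, TMM without the 20 most abundant genes, no filter, edgeR's own filter, DESeq2, a fit of only the libraries compared and a replicate block, and without each mouse in turn. For HSP990 in Hsf1-/- mice the count of 2 became 4 with library size only (0.313% of all genes called) and 6 with DESeq2 (1.03%). It became 0 with only the libraries compared, where no gene of all was called. DESeq2 gave 3 for the difference of that response from wild type, 2 for untreated Hsf1-/- against wild type control mice (only the libraries compared gave 1) and 1 for HS against HSP990 in wild type mice, each 0 by edgeR. For untreated R6/2 control mice the count of 7 became 19 with library size only (43.7% of all genes called) and 0 with only the libraries compared. For vehicle mice the count of 12 became 7 with the latter. A fit of 4 libraries has 2 groups of 2 mice to estimate the spread, and the cause of these changes was not tested. The shares of all genes called are not given for the R6/2 fits of only the libraries compared, nor for the fits without 1 mouse that follow. A changed count there cannot be read as particular to the synthetases.

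Leaving out 1 mouse gave 0 to 2 calls for HSP990 in Hsf1-/- mice (0 without vehicle replicate 1, and 1 without vehicle replicate 2 or HSP990 replicate 2), 1 to 7 for R6/2 control mice (1 without R6/2 or wild type replicate 1, and 3 without wild type replicate 2) and 5 to 9 for R6/2 vehicle mice (5 without R6/2 or wild type replicate 1, and 6 without wild type replicate 2). It gave 0 to 1 for HS in R6/2 mice (1 without HS replicate 2), 0 to 1 for HS against HSP990 in wild type mice (1 without HSP990 replicate 2) and 0 for the other 12 comparisons.

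With library size only, log2 fold changes of R6/2 over wild type turned above 0 among control mice for Farsb (0.109), Gfm1 (0.0368) and Iars (0.165), and among vehicle mice for Aars (0.15), Aimp1 (0.257), Ears2 (0.0697), Eef1a2 (0.183), Eef1e1 (0.051), Farsb (0.314), Gars (0.258), Iars (0.107), Mtrf1 (0.282), Rars2 (0.0935), Sars (0.212) and Yars2 (0.0835). Of 1188 alternatives tried on 92 called gene results, 900 left direction and call as they were and 273 lost the call. The other 15 are the reversals above, under a scaling that put the median of all genes at 0.55 among control and 0.74 among vehicle mice. Of 316 tried on 24 gene results not called, 9 gained a call.

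A fit with the replicate number as a replicate block gave 2 called members for HSP990 in Hsf1-/- mice, 7 for R6/2 control mice, 12 for R6/2 vehicle mice and 0 in the other 14 comparisons, as without it. Of single genes, with the block Fgf21 after HSP990 in Hsf1-/- mice (adjusted p = 0.0769), the interaction of Slc1a4 (0.0514), Slc7a2 in R6/2 control mice (0.0572), Mtrf1 in R6/2 vehicle mice (0.0545), Vldlr in Hsf1-/- vehicle mice (0.0617) and Mthfd2 in HS against HSP990 in Hsf1-/- mice (0.0604) missed the threshold. The labels do not say that a number is shared by mice, and the correlations of same-numbered deviations ran from -0.215 to 0.213 over 66 pairs of groups, 5 of them over 0.1. Libraries held 22450177 to 46599238 counts, and Pars2, at 0 or 1 count in each, could not be tested.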

Other observations

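Other genes of the lists differed between untreated R6/2 and wild type mice. Vldlr, a lipoprotein receptor that ATF4 is known to induce, fell by 2.93 ± 0.24 among vehicle mice and by 1.56 ± 0.23 among control mice on the log2 scale. Under TMM Atf4 fell by 0.79 ± 0.18 among vehicle mice, but with library size only it was at -0.11 and not called. Vldlr stayed called with library size only, at -2.25 among vehicle and -1.02 among control mice. Ddit4, Cebpd and Stc2 rose by 2.81 ± 0.84, 1.84 ± 0.54 and 1.498 ± 0.33 among vehicle mice under TMM. Without R6/2 replicate 2 the change of Ddit4 was 1.08, and without each of the 4 mice in turn the calls of Ddit4, Cebpd and Stc2 were lost in 3, 2 and 2 fits. Among control mice Cebpd, Eif4ebp1, an inhibitor of translation initiation, and Cebpb rose by 2.22 ± 0.55, 0.84 ± 0.23 and 0.63 ± 0.20, and Fgf21 fell, from 6 and 10 counts in wild type to 0 and 0 counts in R6/2. Without R6/2 replicate 1 the changes of Cebpd and Cebpb were 1.30 and 0.34, and the calls of Cebpd, Eif4ebp1, Cebpb and Fgf21 were lost in 3, 3, 2 and 4 of 4 fits. With library size only, the transporter Slc7a2 was at -0.30 among control mice and not called. Under TMM it fell there by 0.84 ± 0.26, and the transporter Slc7a5 rose in both experiments, by 1.57 ± 0.40 and 1.33 ± 0.41. Their calls were lost in 3 of 4 such fits for Slc7a5 in each experiment and in 4 for Slc7a2, and the change of Slc7a5 among control mice ran from 0.88 without wild type replicate 1 to 2.06 without wild type replicate 2.

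HSP990 also changed companions outside Hsf1-/- mice. In wild type mice Impact, an inhibitor of the eIF2 kinase GCN2, rose by 1.16 ± 0.26. In R6/2 mice Ddit4, Cebpd and Slc7a8 fell by 4.77 ± 0.93, 3.41 ± 0.57 and 2.24 ± 0.39. Without 1 of the 4 mice compared, the calls of Impact, Ddit4 and Cebpd were lost in 3 of 4 fits and that of Slc7a8 in 2 of 4. Without vehicle replicate 2 the changes of Ddit4 and Slc7a8 were -3.05 and -1.28.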
